A study of Mus musculus with 10 samples.

Results

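Malat1, Neat1, Meg3, Rian, Mirg, Miat, Snhg11 and Gas5 are 8 long noncoding RNAs that are abundant in brain. They were taken as the rows of the count table that carry these 8 symbols, of 24421 symbols in all. The libraries were made from microglia prepared from mouse cortex by papain dissociation and a density gradient, with ribosomal RNA removed and a stranded paired-end kit, and each library pooled 2 mice. WT mice gave 3 libraries. APP/PS1 mice, a transgenic Alzheimer's disease line that over-expresses mutant human APP and mutant human presenilin-1, gave 4. APP/PS1 mice given N-AS (N-acetyl sphingosine) gave 3, called N-AS libraries here, and these mice received 30 mg/kg under the skin each day for 8 weeks from 7 months of age. Mice of each group were 9 months old. The labels name no vehicle for the other groups, while the study's text names vehicle for APP/PS1 mice, and the labels name no promoter for the transgenes. Total counts ran from 8805804 to 19133654 in WT (median 17102559), from 12474941 to 19432075 in APP/PS1 (median 13050526) and from 12755933 to 19035817 in N-AS libraries (median 16500725).

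Long noncoding RNAs act as RNA, and many of them stay in the nucleus. Malat1 lies among nuclear speckles, where splicing factors gather, and Neat1 is the scaffold of paraspeckles. Meg3, Rian and Mirg are read from the maternal chromosome of the imprinted Dlk1-Dio3 domain and carry small nucleolar RNAs and microRNAs, while Snhg11 and Gas5 are hosts of small nucleolar RNAs. In brain, Meg3, Rian, Mirg, Miat and Snhg11 are best known from neurons, whereas Malat1 and Neat1 are found in many cell types.

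Sex-linked transcripts set the libraries apart. The study's methods name male mice only. Xist, the RNA that silences 1 X chromosome in female cells, measured 4.40, 2.29 and 1.59 CPM (read counts scaled to a common library total with TMM factors) in WT replicates 1 to 3, 453, 482, 579 and 533 CPM in APP/PS1 replicates 1 to 4, and 463, 469 and 2.14 CPM in N-AS replicates 1 to 3. Xist was therefore high in every APP/PS1 library and in N-AS replicates 1 and 2, and low in every WT library and in N-AS replicate 3. Ddx3y, a gene of the Y chromosome, ran from 69.0 to 73.2 CPM in WT and from 0.476 to 26.8 CPM in APP/PS1, and was 73.4 CPM in N-AS replicate 3. The 4 Y-linked genes listed summed to 177, 197 and 178 CPM in WT, 42.7, 57.0, 0.888 and 0.619 CPM in APP/PS1 and 31.0, 45.7 and 176 CPM in N-AS libraries, and Kdm5d and Eif2s3y among them were at 0 in some library. In APP/PS1 against WT, genotype and Xist level cannot be told apart, and the members' fold changes with N-AS are given with and without N-AS replicate 3.

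Markers of other cell types were also present. Summed over 12 listed genes, microglial markers measured 829, 979.6 and 1188 CPM in WT, 2456, 2485, 3123 and 2808 CPM in APP/PS1 and 1841, 1980.0 and 1557 CPM in N-AS libraries. The 13 neuronal markers summed to 3548, 3592 and 7027 CPM in WT, 4474, 4046, 3592 and 4098 CPM in APP/PS1 and 4125, 3769 and 4692 CPM in N-AS libraries, with Camk2a the most abundant. The neuronal sum thus exceeded the microglial sum in every library, and WT replicate 3 had the highest neuronal sum. These sums are not scaled by gene length and depend on the genes listed, so they do not compare amounts of cells. In APP/PS1 replicate 3, Camk2a alone gave 1192 of the 3592 CPM of the neuronal markers. The 10 oligodendrocyte markers summed to 6892, 7051 and 2422 CPM in WT, 4739.7, 4202, 1958 and 2011 CPM in APP/PS1 and 3873, 3979 and 2909 CPM in N-AS libraries. The 8 astrocyte markers, led by Slc1a2, summed to 2248, 2355 and 2675 CPM in WT, 2459, 2546, 3942 and 3547 CPM in APP/PS1 and 2284, 2355 and 3339 CPM in N-AS libraries. Of these 8, Gfap, a filament protein, averaged 14.7 CPM in WT and 735 CPM in APP/PS1, while 5 of 8 had a negative log2 fold change in APP/PS1 against WT and the median was −0.15. None of the genes in these cell type lists was at 0 in a library. Oligodendrocyte sums were highest in WT replicates 1 and 2 and were lower in library numbers 7 to 10 (WT 3, APP/PS1 3 and 4, N-AS 3) than in numbers 1 to 6 (replicates 1 and 2 of each group). The library number is given in the sample titles, and what it stands for is not stated.

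Per kilobase of exon, levels of the members were spread over a wide range. Malat1 had 4038 CPM per kb on average over the 10 libraries (2908 to 5487), and Meg3 had 269 (116 to 401). Snhg11 followed with 164 CPM per kb (109.5 to 213), Neat1 with 43.8 (18.2 to 61.3) and Miat with 43.1 (16.6 to 64.2). Gas5 had 16.4 CPM per kb (12.3 to 21.4), Rian 13.8 (9.99 to 20.9) and Mirg 2.59 (1.29 to 3.74). Malat1 was above Meg3, Snhg11 above Neat1, Miat above Gas5 and Rian above Mirg in 10 of 10 libraries. Meg3 was above Snhg11 in 9 of 10, the exception being APP/PS1 replicate 3, and Gas5 was above Rian in 8 of 10, both exceptions being WT libraries. Neat1 was above Miat in 5 of 10 libraries, and this order differed by group: in 0 of 3 WT, 4 of 4 APP/PS1 and 1 of 3 N-AS libraries. Neat1 averaged 32.4 ± 12.7 CPM per kb in WT (SD, n = 3) and 49.5 ± 10.8 with the transgenes alone (SD, n = 4), and Miat 50.1 ± 14.1 and 31.7 ± 15.3 in the same order. Exon lengths are unions over GENCODE M21 transcripts, and reads from introns, which nuclear RNA holds, would raise a level on this scale. The annotation behind the counts is not stated and may hold other exon lengths. The order of members with close levels, such as Neat1 and Miat (ratio of means 1.02), depends on these lengths.

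**Figure D1:**
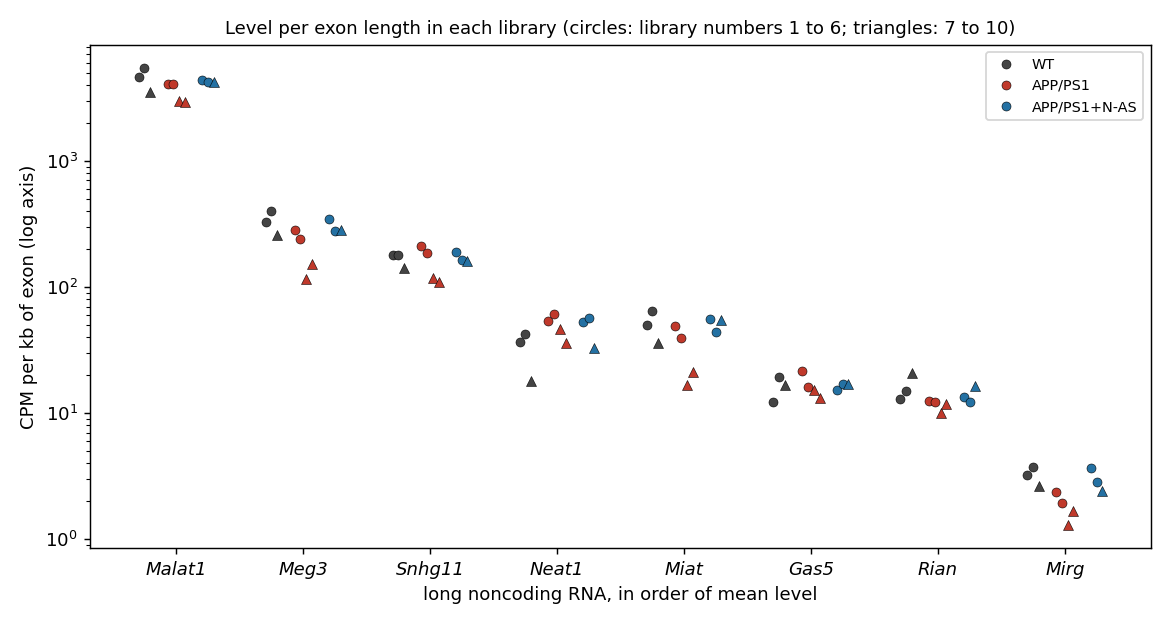
Level of each long noncoding RNA in each library, in CPM per kb of exon on a log axis, with 1 point per library and groups by colour. Malat1 sits between 2908 and 5487 and Mirg between 1.29 and 3.74, and Neat1 lies above Miat in the APP/PS1 libraries and below it in the WT libraries.

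Across libraries the members spanned unequal ranges. The highest CPM of a member over its lowest was 3.86 for Miat, 3.45 for Meg3, 3.38 for Neat1, 2.89 for Mirg, 2.09 for Rian, 1.95 for Snhg11, 1.89 for Malat1 and 1.74 for Gas5. Miat, Meg3, Rian and Mirg were lowest in APP/PS1 replicate 3, and Malat1 and Snhg11 in APP/PS1 replicate 4. Neat1 was lowest in WT replicate 3 and Gas5 in WT replicate 1.

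APP/PS1 against WT asks how the transgenic mice differ from wild-type mice. With edgeR's quasi-likelihood test and p adjusted over the 18727 genes tested, 0 of 8 members passed 0.05, beside 649 genes in all (3.47%, 500 higher and 149 lower in APP/PS1). That count was 319 without WT replicate 1, 362 without WT replicate 2, 430.0 without APP/PS1 replicate 2, and 299 without APP/PS1 replicate 3 or replicate 4. It was 326 with the replicate block, 410.0 in a fit of the 2 groups only and 1055 with the library number set as a covariate, where 2 members passed (Mirg and Neat1). DESeq2 called 1 member, Mirg, beside 1362 genes in all, and limma-voom called 0 members beside 632 genes. At an unadjusted p under 0.05, edgeR counted 3 of 8 members (Meg3, Rian and Mirg, each lower in APP/PS1), beside 17.2% of genes. Groups without overlap were seen in 2 of 8 members (Rian and Mirg), beside 14.9% of genes. The median log2 fold change of the 8 members was −0.43 with 6 of 8 negative, and that of all genes tested was −0.07. In bulk libraries such as these, fewer cells of a type and less RNA per cell cannot be told apart.

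Mirg, which carries a large microRNA cluster, had the lowest adjusted p of the members. It measured 23.5, 27.2 and 19.4 CPM in WT replicates 1 to 3, 17.4, 14.1, 9.43 and 12.2 CPM in APP/PS1 replicates 1 to 4, and 27.0, 20.7 and 17.5 CPM in N-AS replicates 1 to 3. Each APP/PS1 library was below every WT library and every N-AS library, while WT and N-AS overlapped. The margin to the N-AS libraries was small, with 17.43 CPM in APP/PS1 replicate 1 and 17.51 CPM in N-AS replicate 3. WT averaged 23.4 ± 3.93 CPM (SD, n = 3), the APP/PS1 libraries 13.3 ± 3.36 (SD, n = 4) and those with N-AS 21.8 ± 4.83 (SD, n = 3). Against WT the log2 fold change in APP/PS1 was −0.82 (SE 0.22, 95% interval −1.30 to −0.33), with an edgeR adjusted p of 0.0743. Over 18 alternatives the fold change stayed between −0.97 and −0.67 with adjusted p from 0.0188 to 0.202. The adjusted p was 0.0188 with DESeq2, 0.0304 with total counts as the scale, 0.0190 with the library number set as a covariate and 0.0460 without APP/PS1 replicate 1. Mirg rested on 138 to 440 reads per library, the fewest of the members.

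Meg3, the first of the maternal RNAs of the domain, measured 5927, 7253 and 4697 CPM in WT, 5152, 4325, 2101 and 2774 CPM in APP/PS1 and 6264, 4999.7 and 5145 CPM in N-AS libraries. APP/PS1 replicates 3 and 4 were the lowest of the 10, and APP/PS1 replicate 1 lay above WT replicate 3, so these groups overlapped. Its log2 fold change in APP/PS1 against WT was −0.73 (SE 0.31, 95% interval −1.42 to −0.04, edgeR adjusted p = 0.259). Rian, which lies between Meg3 and Mirg and hosts small nucleolar RNAs, measured 238, 275 and 381 CPM in WT, 229, 222, 182 and 216 CPM in APP/PS1 and 246, 226 and 298 CPM in N-AS libraries. Every APP/PS1 library was below every WT library, by a small margin, and WT replicate 3 stood highest. The log2 fold change of Rian was −0.49 (SE 0.19, 95% interval −0.90 to −0.08, edgeR adjusted p = 0.204).

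Other genes of the Dlk1-Dio3 domain were read for comparison, and 5 of 7 listed were tested. Among them 1 fell in APP/PS1 and 0 rose by edgeR. Rtl1, a paternally expressed gene derived from a retrotransposon and lying between Meg3 and Rian on the other strand, measured 38.0, 38.8 and 36.8 CPM in WT, 26.2, 26.1, 17.2 and 19.6 CPM in APP/PS1 and 34.9, 29.8 and 37.5 CPM in N-AS libraries. APP/PS1 libraries were below every other library. Rtl1 had a log2 fold change of −0.77 (SE 0.16, edgeR adjusted p = 0.0274) in APP/PS1 against WT, and the call was lost in 6 of 18 alternatives, where adjusted p reached 0.0988. These were the replicate block, a fit of the 2 groups only, and the fits without WT replicate 1, WT replicate 2, APP/PS1 replicate 3 or APP/PS1 replicate 4. Whether reads were counted by strand is not stated, so reads of Rtl1 and of the maternal RNA that runs antisense to it cannot be told apart. Dlk1, a paternally expressed growth regulator, gave 0.17 (SE 0.37, edgeR adjusted p = 0.864), and Ppp2r5c, the most abundant gene of the list, gave −0.01. Of 14 imprinted genes of other domains, 0 passed edgeR's threshold, 13 were negative and the median was −0.34. Kcnq1ot1, the most abundant of them, gave −0.44 (edgeR adjusted p = 0.401).

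**Figure D2:**
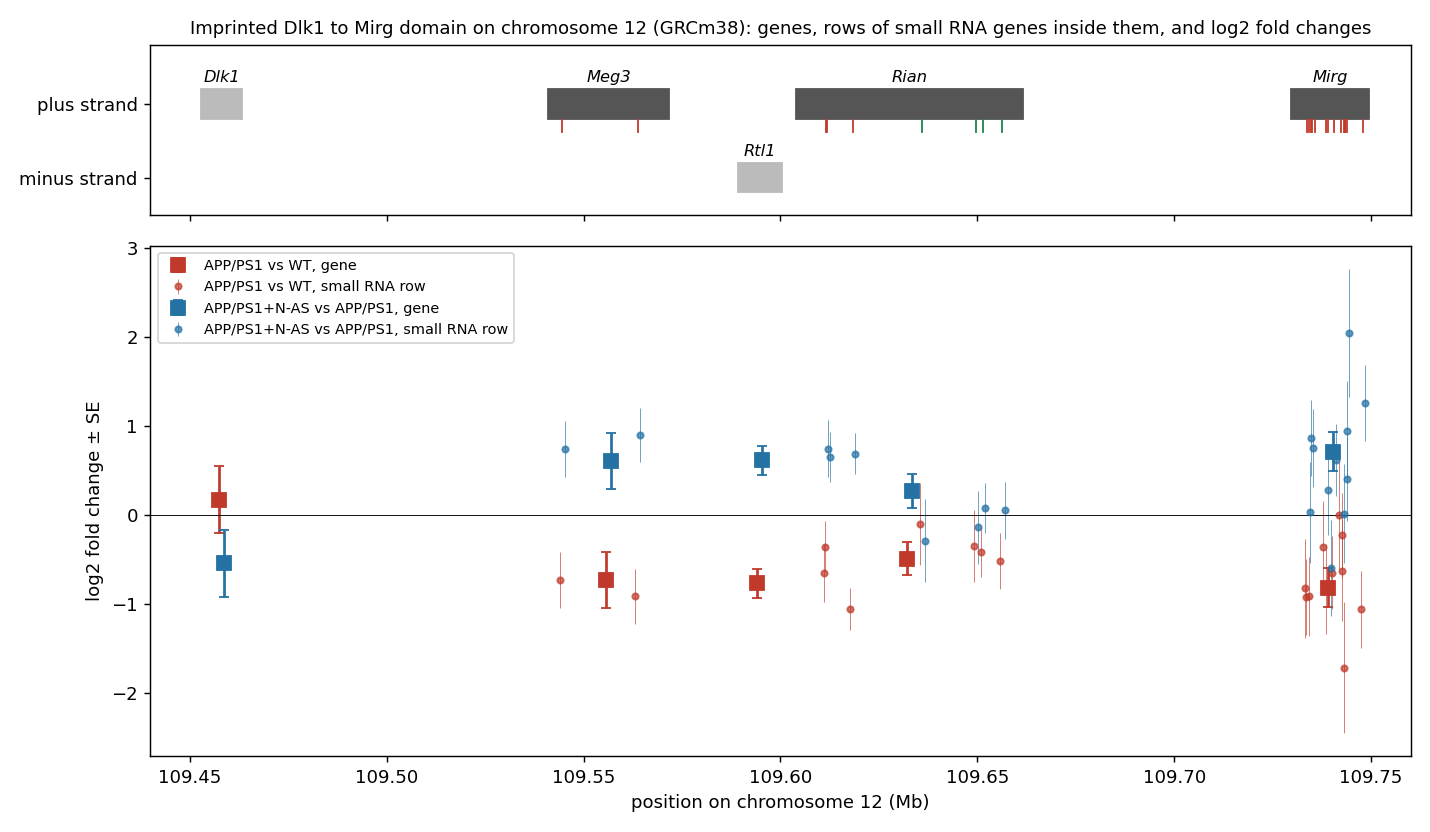
The Dlk1-Dio3 domain on chromosome 12 (GRCm38, position on the horizontal axis) with the log2 fold change of each tested gene and small RNA row for APP/PS1 against WT and for N-AS against APP/PS1, with bars for the SE and ticks under the genes for small RNA rows (microRNAs red, small nucleolar RNAs green). Markers of the comparisons are drawn slightly apart, and the rows inside Meg3, Rian and Mirg lie below 0 in APP/PS1 against WT.

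Within the 8 members the annotation places 46 small RNA genes, of which 24 had rows in the count table (19 microRNAs and 5 small nucleolar RNAs) and 21 were tested. All 21 had a negative log2 fold change in APP/PS1 against WT, and 5 of them had an unadjusted p under 0.05 by edgeR, beside 17.2% of genes. These libraries hold long RNA, so the rows count fragments over hairpin regions and say nothing of mature microRNA levels. Rows in exons of a host can share its reads. For rows in introns this depends on whether introns were counted, which is not stated. Mir370, in an intron of Rian at chr12:109618258-109618336 on the plus strand, was the 1 row with an adjusted p under 0.05 and was chosen after its values were seen. It measured 6.30, 4.58 and 4.48 CPM in WT, 2.76, 2.07, 2.19 and 2.76 CPM in APP/PS1 and 4.02, 3.29 and 4.58 CPM in N-AS libraries, from 25 to 93 reads. APP/PS1 libraries lay below all other libraries. The row fell in APP/PS1 against WT by 1.05 on the log2 scale (SE 0.23, edgeR adjusted p = 0.0351). That call was lost in 9 of 18 alternatives, where adjusted p reached 0.105: total counts, the replicate block, a fit of the 2 groups only, and the fits without WT replicate 1, WT replicate 2 or any 1 of the APP/PS1 replicates. Mir770, in an exon of Meg3 and also chosen after its values were seen, measured 54.8, 57.8 and 25.5 CPM in WT, 31.8, 29.6, 15.8 and 20.4 CPM in APP/PS1 and 55.0, 37.2 and 44.4 CPM in N-AS libraries. WT replicate 3 lay below APP/PS1 replicates 1 and 2, so these groups overlapped, and the log2 fold change was −0.91 (SE 0.31, edgeR adjusted p = 0.150).

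Mir1906-1, inside Meg3, and Mir1906-2, a copy elsewhere in the genome, differed by 3 to 21 reads in each library, from 140 to 602 reads on the first, and so are not separate measurements. Mature sequences of 35 microRNAs from 19 genes in the members were found in RefSeq (GRCm38.p6), 3 in Meg3, 6 in Rian and 26 in Mirg. Those of the rows described above are shown with the seed (bases 2 to 8) in capitals, to show which small RNAs these host regions encode. A seed shared by a pair of them was found only once, between miR-453 and miR-496a-5p of Mirg, and this pair is shown last.
mmu-miR-370-5p: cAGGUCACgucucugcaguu
mmu-miR-370-3p: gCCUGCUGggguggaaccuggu
mmu-miR-770-5p: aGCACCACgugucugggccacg
mmu-miR-770-3p: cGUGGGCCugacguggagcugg
mmu-miR-1906: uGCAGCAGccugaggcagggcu
mmu-miR-453: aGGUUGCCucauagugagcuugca
mmu-miR-496a-5p: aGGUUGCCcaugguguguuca

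Miat, a nuclear RNA best known from neurons, measured 467, 596 and 334 CPM in WT, 456, 369.6, 154 and 198 CPM in APP/PS1 and 521, 405 and 505 CPM in N-AS libraries. APP/PS1 replicates 3 and 4 were far below the rest, while APP/PS1 replicates 1 and 2 lay within the WT range. Its log2 fold change was −0.66 (SE 0.35, 95% interval −1.43 to 0.11, edgeR adjusted p = 0.375). Malat1 measured 31948, 38318 and 24526 CPM in WT, 28405, 28171, 20869 and 20307 CPM in APP/PS1 and 30445, 29368 and 29622 CPM in N-AS libraries. WT and APP/PS1 overlapped, and the N-AS libraries lay close together at 29812 ± 563 (SD, n = 3). Malat1 gave a log2 fold change of −0.37 (SE 0.26, 95% interval −0.95 to 0.21, edgeR adjusted p = 0.532). Of 20 nuclear speckle protein genes tested, 0 passed edgeR's threshold and the median was −0.09, with Srrm2, the most abundant, at −0.18 (edgeR adjusted p = 0.823).

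Neat1 was the member with the largest positive difference. It measured 759, 883 and 377 CPM in WT, 1124, 1273, 969.7 and 750.1 CPM in APP/PS1 and 1098, 1182 and 683 CPM in N-AS libraries. WT replicate 3 was the lowest of the 10, and APP/PS1 replicate 4 lay below WT replicates 1 and 2, so the groups overlapped. The log2 fold change was 0.61 (SE 0.32, 95% interval −0.09 to 1.31, edgeR adjusted p = 0.364). With the library number set as a covariate it was 0.80 (edgeR adjusted p = 0.0296), and adjusted p ran from 0.0296 to 0.593 over 18 alternatives. Without WT replicate 3 it was 0.34. Of 16 genes of paraspeckle proteins, which assemble on Neat1, 0 passed edgeR's threshold and the median was −0.05, with Sfpq, the most abundant, at −0.25 (edgeR adjusted p = 0.491).

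Snhg11 measured 1525, 1531 and 1213 CPM in WT, 1817, 1574, 1002 and 933 CPM in APP/PS1 and 1606, 1405 and 1382 CPM in N-AS libraries. APP/PS1 held both the highest and the lowest libraries, with replicates 1 and 2 above every WT library and replicates 3 and 4 below. The log2 fold change was −0.10 (SE 0.25, 95% interval −0.65 to 0.46, edgeR adjusted p = 0.890). Gas5, a growth arrest transcript whose start carries the pyrimidine tract of translation genes, measured 46.4, 73.3 and 62.7 CPM in WT, 80.6, 61.2, 57.3 and 50.1 CPM in APP/PS1 and 57.8, 63.6 and 64.3 CPM in N-AS libraries. The 3 groups overlapped, and means were 60.8 ± 13.6 (SD, n = 3), 62.3 ± 13.0 (SD, n = 4) and 61.9 ± 3.56 (SD, n = 3) in that order. Gas5 gave 0.03 (SE 0.19, 95% interval −0.38 to 0.45, edgeR adjusted p = 0.953).

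Translation genes with such a tract were read beside Gas5. Of 17 tested, 6 rose and 0 fell in APP/PS1 against WT by edgeR, beside 3.47% of all genes called, and 17 were positive with a median of 0.46, beside −0.07 for all genes. Pabpc1, a poly(A) binding protein, gave 1.19 (edgeR adjusted p = 0.00437), Eef1b2 0.87 (0.0170), Gnb2l1 0.76 (0.0311) and Npm1 0.68 (0.0331), and Eef1a1, the most abundant, gave 0.84 (0.0458). Over 18 alternatives Pabpc1 kept its call, while the call was lost in 4 for Eef1b2 (adjusted p up to 0.0679), 7 for Gnb2l1 (up to 0.104), 8 for Npm1 (up to 0.109) and 12 for Eef1a1 (up to 0.140). The call on Eef1a1 was lost without any 1 of the 7 WT and APP/PS1 libraries. Those on Eef1b2, Gnb2l1 and Npm1 were lost without WT replicate 1, APP/PS1 replicate 3 or APP/PS1 replicate 4, that on Gnb2l1 also without WT replicate 3, and that on Npm1 also without WT replicate 2 or APP/PS1 replicate 2. Among 14 other small nucleolar RNA hosts tested, 0 passed edgeR's threshold, 9 were positive and the median was 0.12, with Snhg14, the most abundant, at −0.33 (edgeR adjusted p = 0.554). Of 25 other long noncoding RNAs tested, 2 rose (Xist, at 7.61 with adjusted p = 0.0161, and its antisense partner Tsix, at 5.45 with adjusted p = 0.0141) and 1 fell by edgeR. The calls on Xist and Tsix were lost in 4 of 18 alternatives (limma-voom, the replicate block, and the fits without WT replicate 1 or WT replicate 2), where adjusted p reached 0.147 and 0.159. Tsix overlaps Xist on the other strand, and without the strand rule of the counting its reads and those of Xist cannot be told apart. The one that fell was Sox2ot, which overlaps the Sox2 gene: it measured 67.9, 68.2 and 45.5 CPM in WT, 38.1, 34.3, 28.6 and 28.2 CPM in APP/PS1 and 42.9, 45.3 and 34.7 CPM in N-AS libraries. WT and APP/PS1 did not overlap, and the log2 fold change was −0.91 (SE 0.18, edgeR adjusted p = 0.0195). The call on Sox2ot was lost without WT replicate 1, WT replicate 2, APP/PS1 replicate 3 or APP/PS1 replicate 4. Rpph1, the RNA of ribonuclease P and the most abundant of that list, gave −0.40 (edgeR adjusted p = 0.643).

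**Figure D3:**
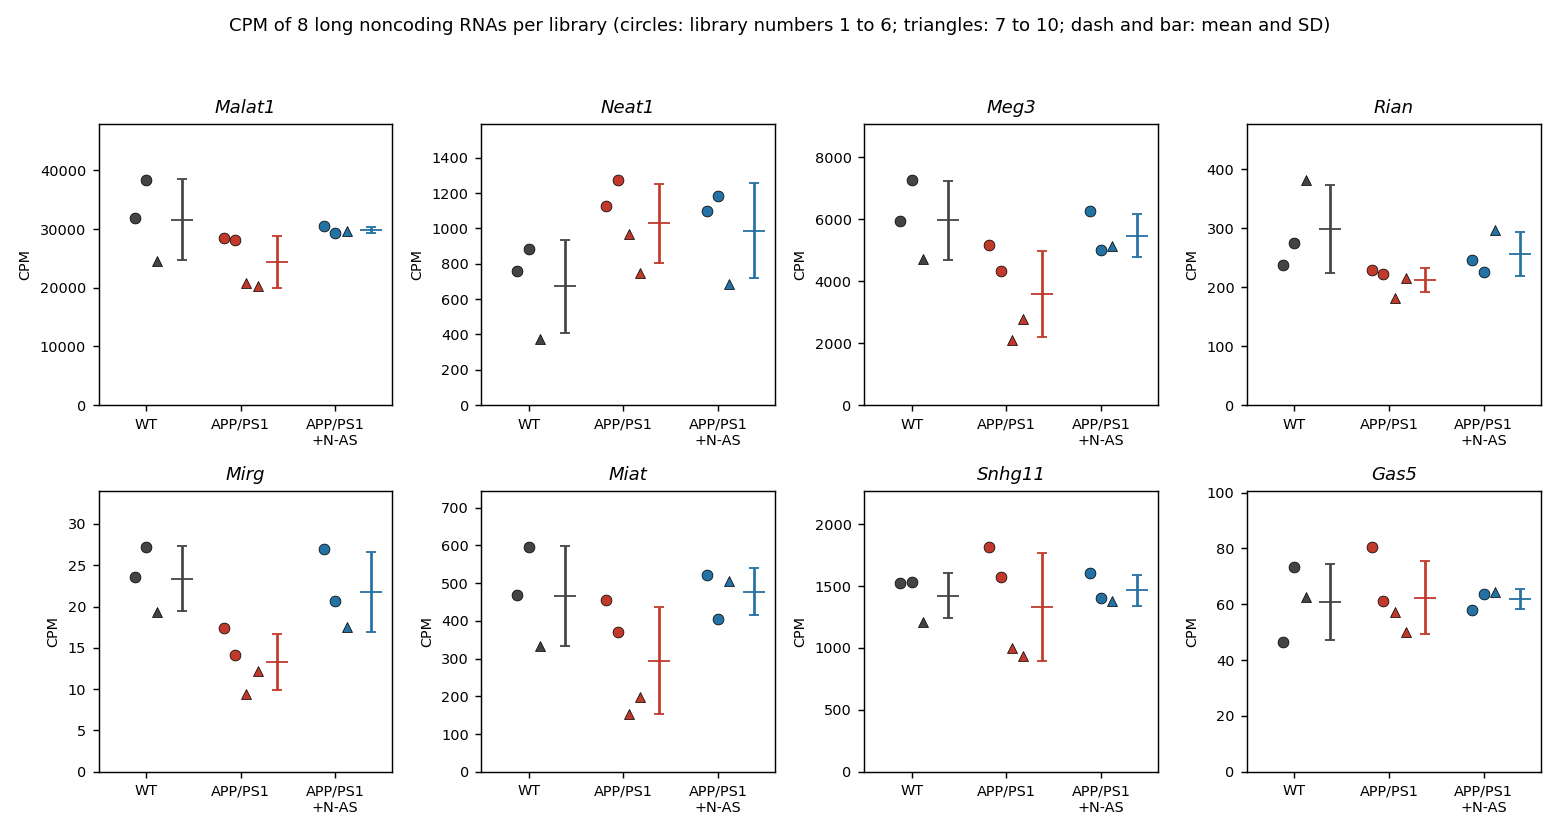
CPM of the 8 long noncoding RNAs in each of the 10 libraries, 1 panel per RNA on its own axis, with a dash for the group mean and a bar for its SD beside the points (circles for library numbers 1 to 6, triangles for 7 to 10). Mirg is lower in every APP/PS1 library (9.43 to 17.4) than in any WT or N-AS library (17.5 to 27.2). The nearest values are 17.43 in APP/PS1 replicate 1 and 17.51 in N-AS replicate 3.

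Differences within each set of library numbers were taken as the mean log2 CPM of APP/PS1 minus that of WT, over 2 against 2 libraries in numbers 1 to 6 and 2 against 1 in numbers 7 to 10. Mirg gave −0.69 in numbers 1 to 6 and −0.84 in numbers 7 to 10, Meg3 −0.47 and −0.96, Rian −0.18 and −0.94, and Miat −0.36 and −0.93. Neat1 gave 0.55 and 1.18, and Malat1 −0.31 and −0.25. Snhg11 (0.15 and −0.33) and Gas5 (0.27 and −0.23) had opposite signs in the sets, while the other 6 members had the same sign in both. With a single WT library in the second set, no test within it was made.

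Neuronal markers moved unevenly among the WT libraries, so the members were also set against them as a log2 difference from the mean log2 CPM of the 13 markers. On that scale the mean of APP/PS1 minus that of WT was −0.70 for Meg3, −0.73 for Mirg, −0.66 for Miat, −0.37 for Rian, −0.27 for Malat1 and −0.05 for Snhg11, with 0.78 for Neat1 and 0.14 for Gas5. The marker mean itself differed by −0.10. Mirg stood at −2.44, −2.41 and −3.97 in WT and at −3.37, −3.56, −3.93 and −3.83 in APP/PS1. WT replicate 3 was the lowest of the 10 libraries there, so the groups that did not overlap in CPM overlapped relative to neuronal markers. The groups also overlapped for Rian, at 0.89, 0.92 and 0.32 in WT and 0.34, 0.40, 0.33 and 0.29 in APP/PS1, where APP/PS1 replicate 4 was lowest. Of the neuronal markers 0 of 13 passed edgeR's threshold in APP/PS1 against WT, 11 were negative and the median was −0.23. By edgeR, microglial markers had 9 of 12 higher (C1qb 2.39), and oligodendrocyte markers had 2 of 10 lower (Opalin −2.27, Cnp −1.68), with all 10 negative and a median of −1.21. The call on Opalin was lost without WT replicate 1, WT replicate 2 or APP/PS1 replicate 3, and that on Cnp without any 1 of these or APP/PS1 replicate 4 and in a fit of the 2 groups only. The part of cell type shares in the members' differences was not tested.

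N-AS against APP/PS1 asks what the treatment does in the transgenic mice. By edgeR 0 of 8 members passed an adjusted p of 0.05, as did 0 of all genes (0%). DESeq2 called 0 members and 79 genes, and limma-voom called 0 members and 0 genes. Without N-AS replicate 3, edgeR also called 0 members and 0 genes. At an unadjusted p under 0.05, 1 of 8 members (Mirg) was counted, beside 8.83% of genes. Of the 8, 2 (Malat1 and Mirg) had groups without overlap, beside 12.7% of genes, with Mirg apart by a small margin (17.43 against 17.51 CPM). The median log2 fold change of the members was 0.28, with 6 of 8 positive, and that of all genes was −0.01. This comparison shares its APP/PS1 libraries with the one against WT, so low values in APP/PS1 enter both.

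Mirg gave a log2 fold change of 0.71 in N-AS against APP/PS1 (SE 0.22, 95% interval 0.23 to 1.20, edgeR adjusted p = 0.494). Without N-AS replicate 3, the library with low Xist, it was 0.86 (adjusted p = 0.677). Malat1 gave 0.29 (SE 0.26, edgeR adjusted p = 0.788), with every N-AS library above every APP/PS1 library, and 0.30 without N-AS replicate 3. Meg3 gave 0.61 (SE 0.31, adjusted p = 0.611), with 0.66 without that library, and Miat gave 0.70 (SE 0.35, adjusted p = 0.600), with 0.66 without it. For both Meg3 and Miat, APP/PS1 replicate 1 lay within the range of the N-AS libraries and APP/PS1 replicates 2, 3 and 4 lay below it. Rian gave 0.27 (SE 0.19, adjusted p = 0.702) and 0.16 without N-AS replicate 3. Snhg11 gave 0.14 and 0.19 without that library, and Gas5 −0.01 and −0.03. Neat1 turned sign, from −0.06 (SE 0.31, adjusted p = 0.974) to 0.16 without it. Without N-AS replicate 3 the N-AS libraries all come from library numbers 1 to 6, while APP/PS1 libraries come from both sets. Treatment and set are thus not balanced in that fit, and the part of the set was not tested.

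N-AS and APP/PS1 libraries with the same replicate number had Pearson r of 0.278, 0.142 and 0.309 across genes after group means were removed. Libraries with other replicate numbers but in the same set of library numbers had like values, 0.173 and 0.197 in numbers 1 to 6 and 0.320 in numbers 7 to 10, so replicate number and set cannot be told apart here. With replicate as a block, 0 members and 0 genes passed, and Mirg gave 0.69 (edgeR adjusted p = 0.542). Within library numbers 1 to 6, N-AS minus APP/PS1 was 0.59 for Mirg, 0.25 for Meg3, 0.16 for Miat and 0.08 for Malat1, and within numbers 7 to 10 it was 0.70, 1.09, 1.53 and 0.52 in that order. In the same order of sets, Rian gave 0.06 and 0.59, Neat1 −0.07 and −0.32, Snhg11 −0.17 and 0.52, and Gas5 −0.21 and 0.26. Snhg11 and Gas5 thus had opposite signs in the sets. Differences for Meg3, Miat, Malat1 and Rian were larger in the second set, which holds 1 N-AS library. Xist was 2.14 CPM in that N-AS library, against 579 and 533 CPM in the APP/PS1 libraries of the set. Treatment and Xist level therefore cannot be told apart there. In numbers 1 to 6 every N-AS and APP/PS1 library had high Xist. Relative to neuronal markers, the difference was 0.68 for Mirg, 0.66 for Meg3, 0.79 for Miat and 0.27 for Malat1, and without N-AS replicate 3 it was 0.92, 0.79, 0.84 and 0.37. As above, treatment and set are not balanced without that library. Rtl1 gave 0.61 (SE 0.16, edgeR adjusted p = 0.494), and 0.55 without N-AS replicate 3. Of 21 small RNA rows inside the members 18 were positive and 3 negative, 7 of them with an unadjusted p under 0.05 by edgeR, beside 8.83% of genes. Without N-AS replicate 3, 15 were positive, 6 negative and 4 had an unadjusted p under 0.05, beside 6.71% of genes. No gene of the other lists passed edgeR's threshold in this comparison. Their medians were 0.16 for nuclear speckle genes (17 of 20 positive), 0.12 for paraspeckle genes and −0.23 for the translation genes (16 of 17 negative), and 0.19, 0.10 and −0.21 without N-AS replicate 3. Cell type markers differed in sign by type, with 0 called by edgeR: microglial markers had 12 of 12 negative with a median of −0.63, choroid plexus and ependymal markers 6 of 6 negative with −0.90, oligodendrocyte markers 10 of 10 positive with 0.50, and neuronal markers 8 of 13 positive with 0.05. At an unadjusted p under 0.05, edgeR counted 8 of 12 microglial and 2 of 6 choroid plexus and ependymal markers, and 0 of the other 2 lists. These counts were 4 of 12, 2 of 6 and 0 without N-AS replicate 3. Without N-AS replicate 3 these medians were −0.47, −0.46, 0.65 and 0.03. Astrocyte markers had 4 of 8 positive with a median of 0.06, and 2 of 8 positive with −0.30 without that library. The part of cell type markers in the members' differences was not tested.

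N-AS against WT asks how treated transgenic mice compare with wild-type mice. By edgeR 0 of 8 members passed, beside 35 genes in all (0.187%, 33 higher and 2 lower), and DESeq2 and limma-voom called 0 members beside 187 and 20.0 genes. At an unadjusted p under 0.05, 0 of 8 members were counted, beside 6.73% of genes, and 0 of 8 had groups without overlap, beside 8.81% of genes. The median of the members was −0.03 and that of all genes −0.04. Log2 fold changes were −0.12 for Meg3 (SE 0.34), −0.22 for Rian (SE 0.20), −0.10 for Mirg (SE 0.24), 0.04 for Miat (SE 0.38), −0.08 for Malat1 (SE 0.28) and 0.55 for Neat1 (SE 0.33), with Snhg11 at 0.04 and Gas5 at 0.02. Adjusted p of the members was at least 0.811 by edgeR. Without N-AS replicate 3, Neat1 gave 0.79, Rian −0.31, Mirg 0.06, Meg3 −0.06, Miat 0.02, Malat1 −0.05, Snhg11 0.11 and Gas5 0.02, and 116 genes in all passed. Every N-AS library left in that fit had high Xist and every WT library low Xist, so group and Xist level cannot be told apart there. The N-AS libraries left also come from library numbers 1 to 6 only, while WT libraries come from both sets. The count of genes was 5, 1 and 57 without WT replicates 1, 2 and 3, and 3 and 2 without N-AS replicates 1 and 2. These values share libraries with both comparisons above.

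Members were also compared with each other over the 10 libraries, as Pearson r and Spearman rho of log2 CPM. Groups, library numbers and cell type markers differ among these libraries and enter every pair, so these values describe and do not test. Meg3 and Miat, on different chromosomes, had r = 0.980 and rho = 0.952 (n = 10). Their r was 0.873 without the 2 libraries farthest from the median and 0.977 in library numbers 1 to 6. In each pair the farthest libraries are those of the member named first. For Meg3 and Mirg r was 0.951 and rho 0.891, with 0.900 and 0.930 on those subsets. Malat1 and Miat had r = 0.932 and rho = 0.939, with 0.864 and 0.833. Meg3 and Rian, in the same domain, had r = 0.530 and rho = 0.624. For this pair r was −0.0406 without the 2 farthest libraries and 0.943 in numbers 1 to 6, so it depended on the libraries kept. Neat1 and Rian had r = −0.764 and rho = −0.527, with −0.377 and −0.598. Meg3 and Snhg11 had r = 0.818 and rho = 0.673, and r was 0.260 without the 2 farthest libraries and −0.075 in numbers 1 to 6. In all, 28 pairs of members were computed.

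Among all genes tested, those with the highest r to each member (n = 10) were found, with r after group means were removed in parentheses. For Meg3 they were Trank1 at 0.992 (0.992), Adgrb2 at 0.991 (0.984) and Celsr3 at 0.990 (0.995). For Miat they were Mir1906-2 at 0.988 (0.982), Mir1906-1 at 0.988 (0.980), whose reads lie in Meg3, and Ankrd13d at 0.986 (0.976). Mirg was nearest to Rexo4 at 0.995 (0.986), Cttnbp2 at 0.986 (0.962) and Dlk2 at 0.985 (0.975). Celsr3 encodes a cadherin of growing axons, and Cttnbp2 a protein of dendritic spines. For Rian the genes were Gria3, a glutamate receptor subunit, at 0.988 (0.991), Prkcz at 0.982 (0.967) and Osbpl1a at 0.979 (0.989). Among those of Malat1 were Sltm at 0.970 (0.978) and Polr3e at 0.962 (0.964), and Neat1 was nearest to Slc39a13 at 0.972 (0.976), Map3k6 at 0.968 (0.958) and Barhl1 at 0.967 (0.955). Sltm encodes an RNA binding protein of the nucleus. Snhg11 was nearest to Mir6991 at 0.960 (0.970), Tarbp2 at 0.960 (0.969) and Elac2 at 0.957 (0.990), and Gas5 to Snord49a at 0.937 (0.938), Rnf225 at 0.927 (0.948) and 2810403A07Rik at 0.927 (0.982). Snord49a is itself a small nucleolar RNA. Only the highest of many correlations are named, so high values arise by choice.

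In position, Malat1 (chr19:5795690-5802672) and Neat1 (chr19:5824708-5845478) lie next to each other on the minus strand, and Meg3 (chr12:109541001-109571726), Rian (chr12:109603940-109661716) and Mirg (chr12:109729764-109749460) follow each other on the plus strand (GRCm38). Miat (chr5:112213228-112229395) is on the minus strand, and Snhg11 (chr2:158375638-158386145) and Gas5 (chr1:161034422-161038539) are on the plus strand. GENCODE M21 types Snhg11 as protein coding. Other genes overlap Meg3, Rian, Miat and Gas5 (Gm26906, Gm26945, Gm26953 and Zbtb37), and their share of reads is unknown. Gm26906, Gm26953 and Zbtb37 are antisense to the member, and the strand rule of the counting is not stated. Gm26945, which overlaps Rian, is not antisense, so a strand rule would not separate its reads. RefSeq gives 9 promoter windows of 300 bases, each spanning a transcript start, for 7 of the members. The cAMP response element TGACGTCA, which reads the same on both strands, is in 2 of the 9 windows and in 588 of 32851 windows in all (1.79%). Its 5 base core TGACG, which overlaps it, is in 3 windows (20.8% of all), CCAAT in 2 (37.4% of all) and TATAAA in 1 (13.6% of all), each searched on both strands. The windows with the whole element belong to Meg3, counted above at an unadjusted p only, and to Gas5, which was not. Groups overlapped in each comparison for both RNAs. The windows are shown with the element in capitals because RNAs with unlike log2 fold changes in APP/PS1 against WT (−0.73 and 0.03) share it. The element begins 57 bases before the start in Meg3 (chr12:109540746-109541045, plus strand) and 46 bases before it in Gas5 (chr1:161034916-161035215, plus strand), from RefSeq GRCm38.p6. A match of letters is a description and not a measured site.
Meg3 promoter: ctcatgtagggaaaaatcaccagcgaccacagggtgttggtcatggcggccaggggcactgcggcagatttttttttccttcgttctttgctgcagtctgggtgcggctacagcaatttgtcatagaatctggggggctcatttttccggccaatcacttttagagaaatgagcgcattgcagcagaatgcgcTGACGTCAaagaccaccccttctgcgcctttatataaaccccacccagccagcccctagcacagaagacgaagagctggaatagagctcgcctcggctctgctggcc
Gas5 promoter: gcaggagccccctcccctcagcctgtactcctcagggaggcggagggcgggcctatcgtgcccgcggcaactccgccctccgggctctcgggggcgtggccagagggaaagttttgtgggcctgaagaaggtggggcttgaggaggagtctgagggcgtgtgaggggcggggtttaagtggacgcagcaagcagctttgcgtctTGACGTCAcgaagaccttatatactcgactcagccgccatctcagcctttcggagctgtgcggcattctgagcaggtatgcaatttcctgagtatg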

How the data were processed

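The deposited files hold 1 raw read count per gene symbol and library, and the authors made these counts from TopHat alignments of paired-end reads, counted on transcript regions. Versions, and whether counting used the strand or introns, are not stated. Lines sharing a symbol (103 lines, 43 symbols) were summed, which gave 24421 symbols from 24481 lines. The members and lists were chosen with earlier results of these data known. Counts were fitted in R 4.3.3 with edgeR 4.0.16 (filterByExpr, TMM scaling, estimateDisp, glmQLFit, glmQLFTest), with all 10 libraries in 1 model of 3 groups, and p was adjusted by Benjamini-Hochberg over 18727 genes (threshold 0.05). The biological coefficient of variation was 27.4%. The procedure was tested on simulated data. TMM factors were 0.894 to 0.992 in library numbers 1 to 6 and 1.06 to 1.12 in numbers 7 to 10. CPM are edgeR's normalised counts on the TMM-scaled total, log2 CPM use a prior count of 2, and levels per kb divide by the union of GENCODE M21 exons.

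Named genes were the 8 members, from each other list at most the 4 with the lowest p past the threshold and its most abundant gene, Xist and the Y-linked genes as checks, and the 3 genes with the highest Pearson r to each member. Not every gene this rule takes is named. Small RNA rows inside members fall outside this rule. Replicate numbers were checked as pairs by correlating libraries after group means were removed. N-AS and APP/PS1 libraries of the same number had r of 0.278, 0.142 and 0.309, so the blocked value is given, although libraries of other numbers in the same set of library numbers had like r (0.173, 0.197 and 0.320). WT and APP/PS1 gave −0.485, 0.441 and −0.00962, and WT and N-AS −0.136, 0.348 and 0.240, so those were left unpaired. Alternatives were DESeq2 1.42.0, limma-voom (limma 3.58.1) with quantile normalization, other scalings and filters, a replicate block, the library number set as a covariate, fits of the 2 groups compared only, and each library left out in turn. Dio3 and Dio3os were not tested because of low counts.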

Additional observations from a re-analysis of the deposited data

Results flagged for a closer look

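Within the 4 APP/PS1 libraries, 24 measures were searched for a library far from the rest, and 2 had one. They were the 8 members, Xist, Tsix, Rtl1, Sox2ot and the summed genes of 12 marker lists, Y-linked genes among them. The summed mural cell markers were 542 CPM in APP/PS1 replicate 4, with a gap to the nearest library that was 0.867 of the range (Dixon's test, past its critical value at 95%). The summed neutrophil markers were 88.6 CPM in APP/PS1 replicate 3, with 0.951 of the range. Chance flags about 1 in 20 groups. None of the 8 long noncoding RNAs had such a library, and groups of 3 were not searched.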

How the results depend on the processing

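Of 424 recalculated fold changes of the 8 members, 398 kept their direction and side of the threshold, 5 passed the threshold where the value reported had not, and 21 changed sign. Of 341 fold changes of other named genes, 269 kept their direction and side of the threshold, 72 lost their call and 0 changed sign. The fits without Rn45s and Rn4.5s, and those for the other named genes, were added after seeing the data. Members called in APP/PS1 against WT numbered 1 with DESeq2, 1 with total counts, 2 with the library number set as a covariate, 3 at an unadjusted p under 0.05 and 0 to 1 with a library left out. In N-AS against APP/PS1, 1 member passed at an unadjusted p under 0.05. Genes called in APP/PS1 against WT numbered 1362 with DESeq2, 326 with the replicate block, 1055 with the set as a covariate, 410.0 with only the 2 groups, 3221 unadjusted and 299 to 923 with a library left out. In N-AS against APP/PS1 they numbered 79 with DESeq2, 1653 unadjusted and 0 to 1 with a library left out. In N-AS against WT they numbered 187 with DESeq2, 20.0 with limma-voom, 5 with the block, 64 with the set, 2 with only the 2 groups, 1261 unadjusted and 1 to 116 with a library left out.

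Values that changed sign follow. In APP/PS1 against WT, Snhg11 was 0.014 with the replicate block and −0.28 to 0.051 with a library left out, and Gas5 −0.13 to 0.19. In N-AS against APP/PS1, Gas5 was 0.0020 without a filter and −0.11 to 0.14 with a library left out, Neat1 −0.21 to 0.16 and Snhg11 −0.0059 to 0.33. In N-AS against WT, values with a library left out were −0.23 to 0.086 for Malat1, −0.26 to 0.050 for Meg3, −0.35 to 0.0039 for Rian, −0.28 to 0.056 for Mirg, −0.15 to 0.26 for Miat, −0.052 to 0.11 for Snhg11 and −0.13 to 0.19 for Gas5. The cause was not tested. Mirg had 138 to 440 reads per library, and what depth limits was not tested.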

Other observations

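Klk14, Pigr and Nkx2-1 were higher in each of library numbers 1 to 6 than in each of numbers 7 to 10. Among the rows with the most reads, Rn4.5s ran from 11286 to 34902 CPM, Rn45s from 4557 to 15732, Klk14 from 2786 to 20499, Pigr from 2154 to 18772 and Nkx2-1 from 811 to 7241. Summed choroid plexus and ependymal markers, with Ttr the most abundant, were 413, 414 and 21.7 CPM in WT, 881, 1216, 886 and 722 CPM in APP/PS1 and 621, 832 and 27.0 CPM in N-AS libraries, so WT replicate 3 and N-AS replicate 3 stood lowest. Gfap, an astrocyte filament protein, gave a log2 fold change of 5.65 in APP/PS1 against WT (edgeR adjusted p = 0.000545) and 3.98 in N-AS against WT (edgeR adjusted p = 0.0187). Without N-AS replicate 3 the latter was 4.42 (edgeR adjusted p = 0.000398). That call was lost with the replicate block, in a fit of the 2 groups only, and without WT replicate 1, WT replicate 2, N-AS replicate 1 or N-AS replicate 2, where adjusted p reached 0.183. In N-AS against APP/PS1, Gfap gave −1.67 (edgeR adjusted p = 0.494), and those groups did not overlap. The other marker sums ran from 76.0 to 124 CPM for oligodendrocyte precursors, 424 to 1187 for endothelium, 248 to 823 for mural cells, 19.5 to 41.4 for border macrophages, 2.43 to 88.6 for neutrophils and 3.69 to 9.77 for lymphocytes.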
